A study of Mus musculus with 11 samples.

Results

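The Notch receptors Notch1, Notch2, Notch3 and Notch4, the ligands Jag1, Jag2 and Dll1, the non-canonical ligand Dlk1, and the target genes Hes1 and Hey1 were followed in premalignant mouse mammary lesions. All probe sets annotated to 1 of these 10 genes alone were taken, which gave 13 of the 12422 probe sets tested and 9 of the 10 genes. No probe set was annotated to Jag1 alone, and Jag1 was not measured here. The family was chosen by the measured PN1a and PN1b values of Notch4 probe set 93928_f_at, which were known beforehand. The comparison of PN1a with PN1b is therefore given for these members as a description with no p-value, and nothing is read from their calls. Gene expression was measured on Affymetrix MG_U74Av2 arrays in PN1a lesions (n = 5) and PN1b lesions (n = 6), both taken as whole mammary glands at 8 weeks post-transplantation. PN1a and PN1b are lines of ductal hyperplasia that arose as outgrowths in opposite glands of 1 mouse after p53-null mammary epithelium was placed in cleared fat pads, and both were kept by serial transplantation. PN1a has the higher tumor-forming potential of the pair. The epithelium of both groups lacked p53, while the fat pad, vessels and immune cells belonged to syngeneic wild-type Balb/c hosts. Each group is 1 line from 1 founder mouse, and the labels do not say whether the samples of a line came from separate mice, or whether PN1b 1 to PN1b 4, titled like spans of numbers, were pooled.

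Notch receptors are membrane proteins that bind Delta-like and Jagged ligands on a neighboring cell. Ligand binding leads to cleavage by an ADAM protease and by gamma-secretase, and the freed intracellular part joins the DNA-binding protein Rbpj to switch on targets such as the Hes and Hey repressors. In the mammary gland the pathway takes part in the choice between luminal and basal cell fates. Notch4 was first known as Int3, a site where mouse mammary tumor virus integrates in mammary tumors, and in normal tissue it is best known from endothelium.

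The deposited values were linear intensities, quantile-normalized by the authors, with a lowest value of 1. The median intensity lay between 8.57 and 8.94 in the PN1a samples, against 8.88 to 9.51 in the PN1b samples. PN1a 1 and PN1a 2 stood apart from the rest: the 3 probe sets for 18S ribosomal RNA read 118.6 to 276.3 in these samples and 3.07 to 32.7 in the other 9, and Fos, an immediate early gene, read 16.2 and 14.6 in them at its probe set with the higher mean, against 306.6 to 333 in the other PN1a samples and 245.6 to 626 in PN1b. Values without PN1a 1 and PN1a 2 are therefore given beside results below. The sample titles end in 3 different ways whose meaning the labels do not give: set 1 holds all 5 PN1a samples with PN1b 5 and PN1b 6, set 2 holds PN1b 2, and set 3 holds PN1b 1, PN1b 3 and PN1b 4. The group difference within set 1 is the only one free of the title ending, and a fit with the ending as a block gives the same estimate. Bright markers of the labelled tissue were present. The luminal keratin Krt18 read 73.0 to 653 in PN1a samples, against 639 to 936 in PN1b samples. The luminal keratin Krt8 read 52.7 to 443 in PN1a and 307 to 657 in PN1b. The myoepithelial actin Acta2 read 349.7 to 714 in PN1a and 622 to 1097 in PN1b. Other markers, named after their values were seen, went differently. The basal keratins Krt5 and Krt14 read at most 12.2 and 4.44 in any sample. Krt17, on the same list, read 30.1 to 261 in PN1a and 34.3 to 62.3 in PN1b. Its log2 difference for PN1a minus PN1b was 1.21, or 1.99 without PN1a 1 and PN1a 2. Among the 10 basal and myoepithelial genes, 2 differences were positive and 8 negative. The luminal keratin Krt19 had a log2 difference of 2.633 for PN1a minus PN1b, where Krt18 had -1.395. Without PN1a 1 and PN1a 2 these were 4.09 and -0.53, and Krt8 went from -1.25 to -0.51. Of the 16 luminal genes, 7 had positive and 9 negative differences. In these bulk samples fewer cells of a type cannot be told apart from less RNA per cell.

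Summed over each marker list, luminal intensity was 396 in PN1a 1, 1719 to 2794 in the other PN1a samples and 1961 to 2459 in PN1b (16 genes, none called, median log2 difference -0.18 for PN1a minus PN1b, or 0.05 without PN1a 1 and PN1a 2). Basal and myoepithelial markers summed to 680 to 1514 in PN1a samples, against 1148 to 2211 in PN1b, with 1 of 10 called, the basal transcription factor Trp63 at -1.55 (limma adjusted p = 0.0262). Within PN1b that sum was 1173 and 1148 in PN1b 5 and PN1b 6 and 1995 to 2211 in the other 4. Macrophage markers summed to 852 to 1384 in PN1a samples, against 320 to 906 in PN1b, all 12 differences were positive, and Cd68 at 1.11 and C1qb at 2.20, a lysosomal protein and a complement chain, were called higher. Endothelial markers summed to 166 to 481 in PN1a samples, against 348 to 505 in PN1b, with none of 15 called. Mural cell markers, of which Notch3 is 1 of 7, summed to 124 to 199 in PN1a samples, against 133 to 186 in PN1b, with none called. Adipocyte sums were 113 to 213 in PN1a and 287 to 335 in PN1b, with 1 of 10 called, the lipoprotein lipase gene Lpl at -1.81 (limma adjusted p = 0.0415), or -0.94 without PN1a 1 and PN1a 2. The median over the adipocyte list was -0.05, with 5 positive and 5 negative. Fibroblast and preadipocyte sums were 741 to 2889 in PN1a and 1993 to 3356 in PN1b, with none of 9 called. None of 10 T cell or 8 skeletal muscle markers was called, and 1 of 7 B cell markers was called lower, the coactivator gene Pou2af1 at -1.86. The called markers were named after their values were seen. With the title ending as a block, Pou2af1 remained called (limma adjusted p = 0.0213), while Trp63, Lpl, Cd68 and C1qb were not, at adjusted p = 0.453, 0.453, 0.414 and 0.467 in that order. The part of these cell types in the results that follow was not tested.

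Among the receptors, Notch4 had 2 probe sets, and they differed from each other. Probe set 93928_f_at read 5.10, 8.69, 13.9, 17.3 and 11.6 in the 5 PN1a samples, and in PN1b its lowest value was 127, its median 443 and its highest 541. The groups did not overlap, and the lowest PN1b samples were PN1b 5 and PN1b 6, at 127 and 244. The mean log2 intensity was 3.38 ± 0.68 in PN1a and 8.43 ± 0.82 in PN1b (SD, n = 5 and 6), a difference of -5.04 (SE 0.40), or 32.9-fold lower in PN1a. Within title ending set 1 the difference was -4.08 (SE 0.48), without PN1a 1 and PN1a 2 it was -4.61 (SE 0.42), and on the log2(intensity + 16) scale it was -3.75. In the naming of the array maker the suffix _f marks a probe set that can match a family of related sequences, so its signal cannot be assigned to Notch4 alone. The endothelial marker list had a median log2 difference of -0.38, with 14 of 15 negative. That median was -0.70 within title ending set 1 and 0.01 without PN1a 1 and PN1a 2.

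The other Notch4 probe set, 92652_at, read 9.00, 13.7, 11.6, 8.22 and 7.73 in PN1a samples. In PN1b its lowest, median and highest values were 6.68, 8.37 and 10.3. The groups overlapped across most of their range, and the highest samples were PN1a 2 and PN1a 3. Its mean log2 intensity was 3.30 ± 0.35 in PN1a and 3.06 ± 0.25 in PN1b (SD, n = 5 and 6), a difference of 0.23 (SE 0.20), little more than its own SE, or 0.12 without PN1a 1 and PN1a 2. Leaving out each sample in turn gave 0.11 to 0.32 for this probe set and -5.33 to -4.78 for 93928_f_at. Over the 11 samples the log2 values of the pair had a Pearson correlation of -0.46, which is a description, since the points include the group difference.

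**Figure D1:**
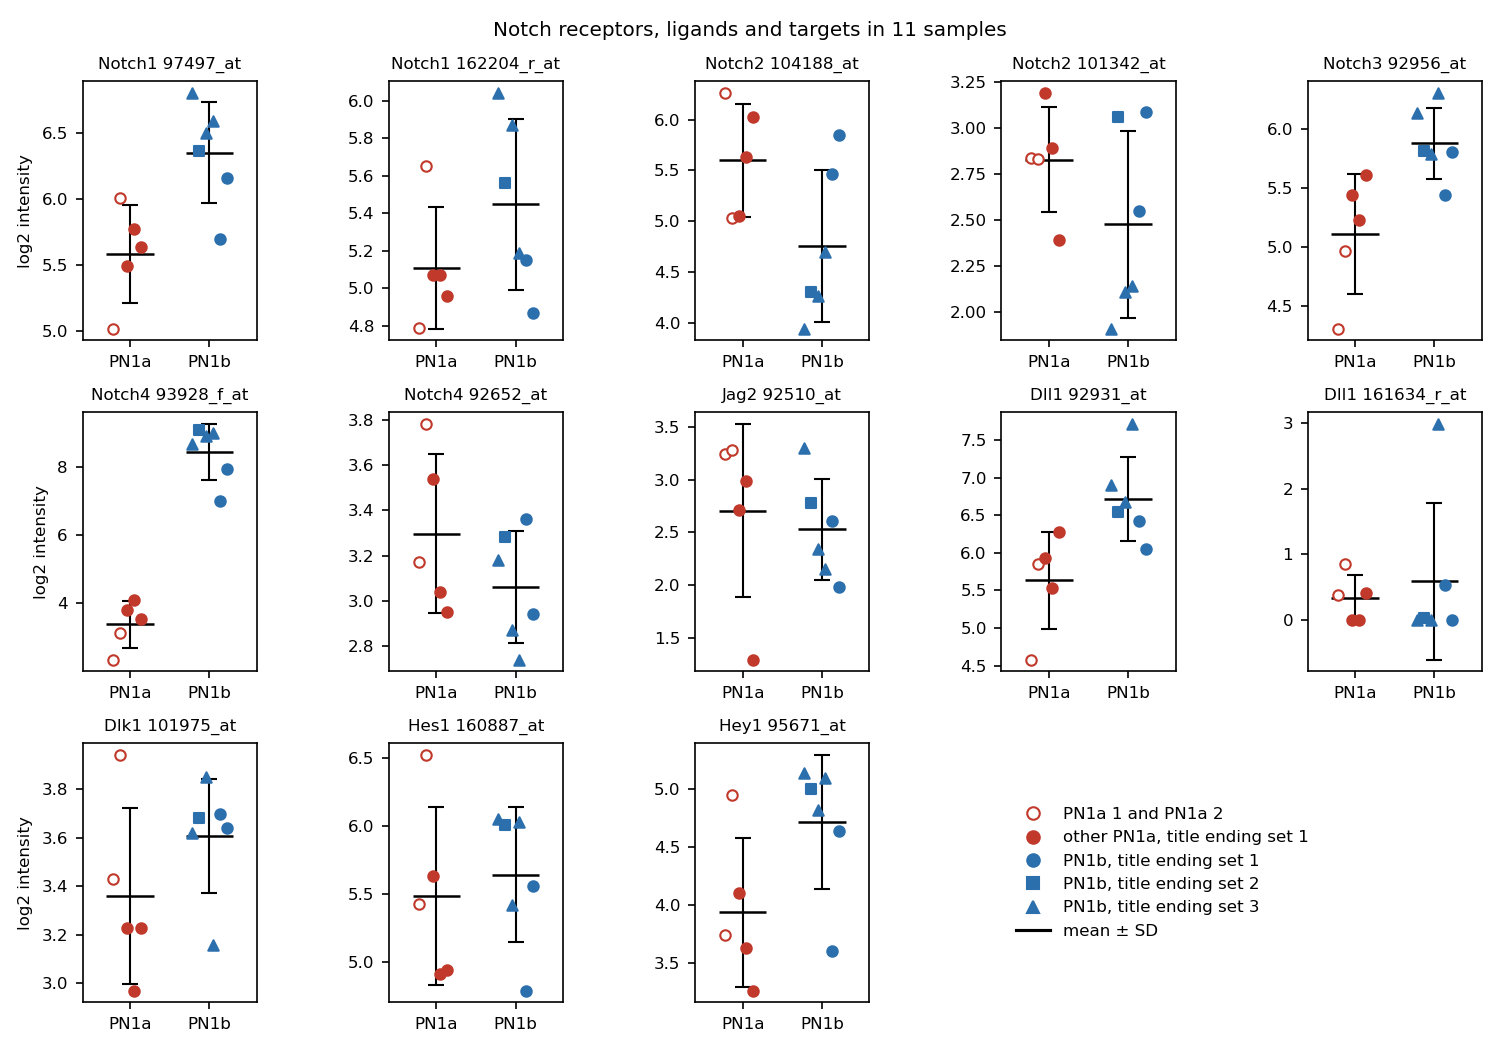
Log2 intensity of the 13 member probe sets, 1 panel each with its own axis range, in PN1a samples on the left and PN1b samples on the right. Points are samples, marked by title ending set, open circles are PN1a 1 and PN1a 2, and lines give the mean with its SD. Of the 13 panels, that of Notch4 93928_f_at is the one with no overlap between the groups, with PN1a means at 3.38 and PN1b at 8.43.

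The promoters of Notch4 and Dll1 are shown here because the data hold values of a factor whose motif occurs in them. Of the member probe sets, 93928_f_at and Dll1 92931_at had the largest differences. The signal of 93928_f_at cannot be assigned to Notch4 alone, and Notch4 92652_at differed by 0.23 (SE 0.20). RefSeq promoters on GRCm38.p6, cut from 250 bases before to 10 bases after the transcription start, were matched for 8 of the 10 genes, all but Hes1 and Hey1. The capitals mark a match to TGANTCA, the motif of AP-1, the factor that contains Fos, which was searched on both strands, was chosen after the sequences were seen, and reads alike on both strands apart from its middle base. The Notch4 window is chr17:34564045-34564304 on the plus strand, with the match starting at position -4 from the start site, and the Dll1 window is that of the more upstream of its 2 start sites, chr17:15376923-15377182 on the minus strand, with the match starting at -109.
Notch4 promoter: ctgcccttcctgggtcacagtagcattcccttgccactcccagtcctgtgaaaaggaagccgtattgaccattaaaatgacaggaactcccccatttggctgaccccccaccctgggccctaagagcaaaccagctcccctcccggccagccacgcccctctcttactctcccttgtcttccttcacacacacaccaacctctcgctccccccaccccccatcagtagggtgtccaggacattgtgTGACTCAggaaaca
Dll1 promoter: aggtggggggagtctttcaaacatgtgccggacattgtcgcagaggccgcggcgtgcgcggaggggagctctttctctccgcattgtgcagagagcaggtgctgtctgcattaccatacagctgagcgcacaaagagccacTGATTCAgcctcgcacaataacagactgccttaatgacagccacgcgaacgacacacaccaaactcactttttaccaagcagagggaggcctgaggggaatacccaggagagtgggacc
This motif was in 7.03% of the 32851 promoters of the same length. It was in no other promoter of the members, that of the other Dll1 start site included. Its choice after the sequences were seen fixed these matches beforehand, so nothing is read from that share. The core motif of Rbpj, TGGGAA, searched on both strands, was in none of the 9 member promoters, which do not include those of the targets Hes1 and Hey1, and in 22.4% of all promoters. Those matches are letters in a window and nothing about binding is read from them. The relation of the Fos values to those of Notch4 and Dll1 was not tested.

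By position, Notch4 lies on chromosome 17 beside the class II genes of the major histocompatibility complex, which present antigen to T cells. In the gene order of GRCm38.p6, the 3 measured neighbors on 1 side were H2-Eb1 at 0.89 (limma adjusted p = 0.127), H2-Eb2 at 0.13 (adjusted p = 0.826) and H2-Ea at 0.91 (adjusted p = 0.130), as log2 differences of PN1a minus PN1b. On the other side were Gpsm3, a regulator of G protein signaling, with probe sets at 0.07 and 0.08 (adjusted p = 0.897 and 0.844), the homeobox gene Pbx2 at 0.06 (adjusted p = 0.912) and the receptor gene Ager at -0.15 (adjusted p = 0.729). Within title ending set 1, H2-Eb1 stood at 0.41, H2-Ea at 0.26, Pbx2 at 0.26 and Ager at -0.03. None of these genes was called.

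**Figure D2:**
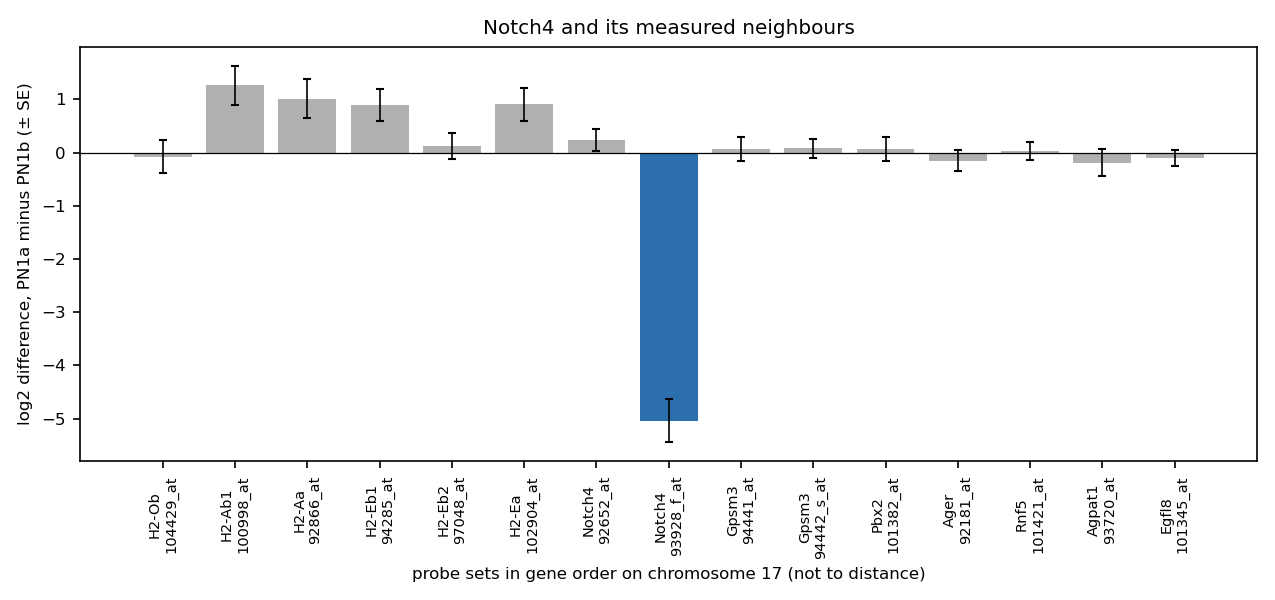
Log2 difference of PN1a minus PN1b, with its SE, for the Notch4 probe sets and those of the 6 measured genes on each side, in gene order along chromosome 17 and not to distance. The bar of 93928_f_at reaches -5.04, the second Notch4 probe set stands at 0.23, and no neighbor was called.

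By Pearson correlation of log2 intensity over the 11 samples, the 5 probe sets with 1 gene symbol closest to 93928_f_at were those of Atp2a3, a calcium pump of the endoplasmic reticulum (0.989), Atp1b1, a subunit of the sodium and potassium pump (0.981), the X-linked homeobox gene Rhox5 (0.978), the ADP-ribosyltransferase family gene Art3 (0.978) and the glutathione transferase Gstt1 (0.975). These points share the group difference, and after the group means were taken out the correlations were 0.839, 0.915, 0.65, 0.789 and 0.903 in the same order. Atp2a3 probe set 103935_at, the closest, read 11.2, 9.00, 10.9, 15.7 and 16.2 in PN1a samples, and 584, 729, 680, 734, 167 and 239 in PN1b samples. As with 93928_f_at, PN1b 5 and PN1b 6 were the lowest of the PN1b samples and still above every PN1a sample. Atp2a3 lies on chromosome 11, Atp1b1 on 1, Rhox5 on X, Art3 on 5 and Gstt1 on 10, none of them on the chromosome of Notch4. A pair of probe sets with no gene symbol, 92779_f_at and 92778_i_at, outside the rule for names and picked after their values were seen, had correlations of 0.987 and 0.982 and log2 differences of -7.90 and -6.23.

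For 92652_at the 5 closest probe sets with 1 gene symbol were Mocos (0.917), a molybdenum cofactor enzyme, Slc35c2 (0.906), a transporter family gene, the helicase Ddx24 (0.906), the RNA editing enzyme Adar (0.898) and the semaphorin Sema4a (0.865). Their differences lay between 0.23 and 0.70 on the log2 scale, and none was called. A probe set annotated to several genes, with a correlation of 0.882, was passed over by the rule. The lists of the 2 Notch4 probe sets shared no gene. Their negative correlation with each other, -0.46, fixed this beforehand at such high correlations, so nothing is read from it.

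**Figure D3:**
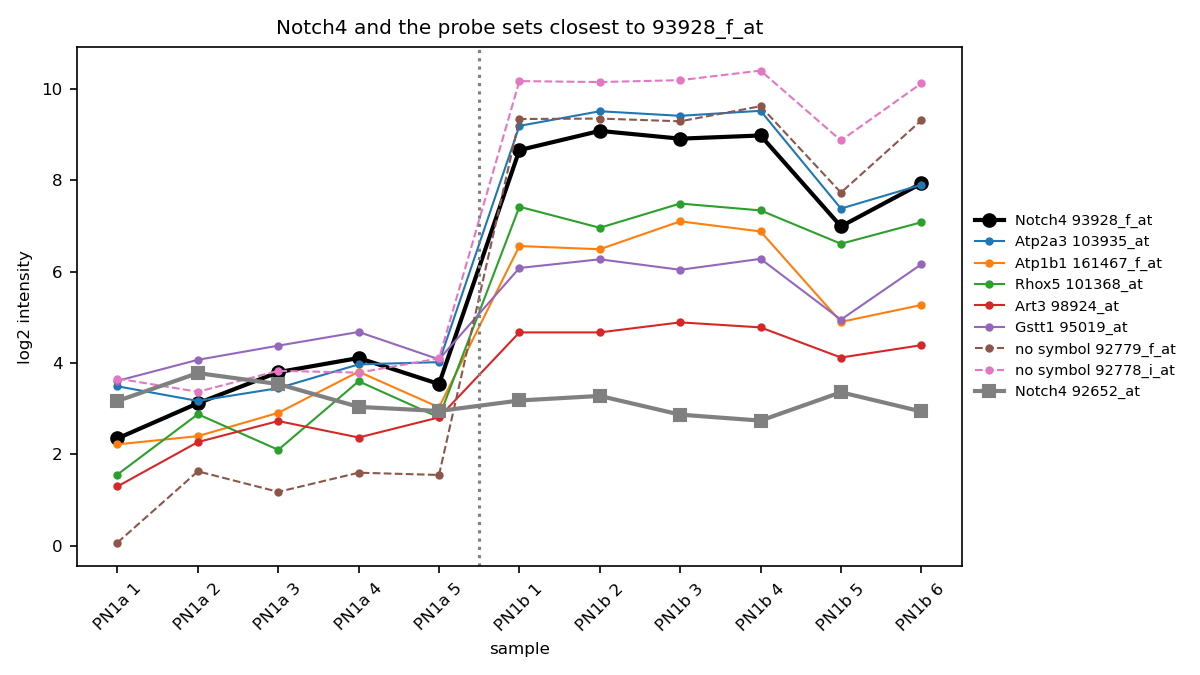
Log2 intensity in each of the 11 samples, PN1a left of the dotted line and PN1b right of it, for both Notch4 probe sets and for the probe sets closest to 93928_f_at. The line of 93928_f_at runs with those of Atp2a3 and the others, with a dip at PN1b 5, while 92652_at keeps close to its means of 3.30 in PN1a and 3.06 in PN1b.

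Notch1, the receptor studied most widely in epithelium and lymphocytes, also had 2 probe sets. Probe set 97497_at read 32.4, 64.4, 44.9, 54.6 and 49.9 in PN1a samples, and its lowest, median and highest values in PN1b were 52.0, 86.3 and 111. PN1b 5, at 52.0, was the PN1b sample that lay inside the PN1a range. The mean log2 intensity was 5.59 ± 0.37 in PN1a and 6.35 ± 0.39 in PN1b (SD, n = 5 and 6), a difference of -0.77 (SE 0.23), or 1.70-fold lower in PN1a. Within title ending set 1 it was -0.34 (SE 0.32), and it stood at -0.90 and met the call rule when PN1b 5 was left out. Since PN1b 5 was the sample inside the PN1a range, nothing is read from that call. Probe set 162204_r_at, whose suffix says that some probe selection rules were dropped, read 27.7 to 50.2 in PN1a and 29.2 to 65.8 in PN1b, with a difference of -0.34 (SE 0.24) that turned to 0.10 within set 1. Its log2 values correlated with those of 97497_at at 0.744 over 11 samples.

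Notch2 was the receptor with positive differences in both of its probe sets. Probe set 104188_at read 76.6, 32.7, 33.1, 49.5 and 65.3 in PN1a samples, and its lowest, median and highest values in PN1b were 15.3, 22.8 and 57.7. The 4 PN1b samples of title ending sets 2 and 3 read 15.3 to 26.0, below every PN1a sample, while PN1b 5 and PN1b 6 at 44.0 and 57.7 lay among the PN1a samples. Its mean log2 intensity was 5.60 ± 0.56 in PN1a and 4.75 ± 0.75 in PN1b (SD, n = 5 and 6), a difference of 0.85 (SE 0.36), which was -0.06 within set 1. The second probe set, 101342_at, read 5.24 to 9.13 in PN1a and 3.76 to 8.52 in PN1b, with a difference of 0.35 (SE 0.25) that was 0.01 within set 1. The title ending and the group cannot be told apart for the PN1b samples of sets 2 and 3.

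Notch3, a receptor best known from the smooth muscle and pericytes of vessels, read 19.8, 31.3, 43.4, 37.5 and 48.8 in PN1a samples at probe set 92956_at. In PN1b its lowest, median and highest values were 43.4, 55.9 and 78.8. Most PN1b samples lay above the PN1a range, and PN1b 5 was the one within it. The mean log2 intensity was 5.11 ± 0.51 in PN1a and 5.88 ± 0.30 in PN1b (SD, n = 5 and 6), a difference of -0.77 (SE 0.25). The lowest PN1a values were those of PN1a 1 and PN1a 2, and without them it was -0.45, with -0.51 within set 1. The mural cell list, Notch3 included, had a median difference of -0.0007, and of -0.42 without PN1a 1 and PN1a 2.

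Among the ligands, Dll1, a Delta-like ligand that binds Notch receptors in trans, had the largest difference of the members after Notch4 93928_f_at. Probe set 92931_at read 23.9, 57.7, 61.0, 46.2 and 77.7 in PN1a samples, and its lowest, median and highest values in PN1b were 66.3, 97.8 and 209. The groups overlapped through PN1a 5 and PN1b 6, and the lowest sample of all was PN1a 1. The mean log2 intensity was 5.63 ± 0.65 in PN1a and 6.72 ± 0.56 in PN1b (SD, n = 5 and 6), a difference of -1.08 (SE 0.33), or 2.12-fold lower. It was -0.61 (SE 0.43) within set 1 and -0.81 without PN1a 1 and PN1a 2. The other Dll1 probe set, 161634_r_at, stood at the floor of 1 in 2 PN1a samples and in 3 PN1b samples and above 2 only in PN1b 4, at 7.89, so no size is read from its difference of -0.26 (SE 0.48), or -0.45 without PN1a 1 and PN1a 2.

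Jag2, a Jagged ligand, read 9.45, 9.71, 6.54, 7.94 and 2.46 in PN1a samples at probe set 92510_at. In PN1b its lowest, median and highest values were 3.97, 5.58 and 9.85. PN1a 5 was the lowest of the 11, and the groups covered much the same range. The difference was 0.17 (SE 0.35) and turned to -0.20 without PN1a 1 and PN1a 2. Leaving out single samples gave 0.03 without PN1a 2 and 0.525 without PN1a 5. Dlk1, a Delta-like protein without the domain that activates Notch and a marker of preadipocytes, read 10.8, 15.3, 9.38, 7.84 and 9.38 in PN1a samples at probe set 101975_at. Its lowest, median and highest values in PN1b were 8.94, 12.6 and 14.4, and the highest and the lowest sample of all were both PN1a. Its mean log2 intensity was 3.36 ± 0.36 in PN1a and 3.61 ± 0.23 in PN1b (SD, n = 5 and 6), a difference of -0.25 (SE 0.20), or -0.47 without PN1a 1 and PN1a 2.

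Of the targets, the repressor Hes1 read 43.1, 91.8, 49.5, 30.1 and 30.7 in PN1a samples at probe set 160887_at. In PN1b its lowest, median and highest values were 27.7, 55.8 and 66.3. The highest sample was PN1a 2, the lowest PN1b 5, and the groups overlapped throughout. The mean log2 intensity was 5.49 ± 0.66 in PN1a and 5.64 ± 0.50 in PN1b (SD, n = 5 and 6), a difference of -0.16 (SE 0.32), which was 0.31 within set 1 and -0.48 without PN1a 1 and PN1a 2.

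Hey1, a related repressor known as a Notch target in vessels and other tissues, read 13.4, 30.9, 17.1, 12.4 and 9.58 in PN1a samples at probe set 95671_at. Its lowest, median and highest values in PN1b were 12.1, 30.1 and 35.3. PN1b 5 lay with the low PN1a samples and PN1a 2 with the PN1b samples. The mean log2 intensity was 3.94 ± 0.64 in PN1a and 4.72 ± 0.58 in PN1b (SD, n = 5 and 6), a difference of -0.78 (SE 0.33), or 1.72-fold lower. Within set 1 it was -0.18, and without PN1a 1 and PN1a 2 it was -1.05. Notch1 97497_at, Notch3, Notch4 93928_f_at, Hes1 and Hey1 had in common that PN1b 5 was their lowest PN1b sample. They were picked after the values were seen, and PN1b 5 was not the lowest PN1b sample in any other member probe set. Notch1 162204_r_at and Dll1 92931_at were lowest in PN1b 6, and Dlk1 in PN1b 4. How often PN1b 5 was lowest over all probe sets was not counted. The summed basal and myoepithelial markers were also lower in PN1b 5 and PN1b 6, at 1173 and 1148, than in the other PN1b samples, and their part in these differences was not tested.

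Across the 13 member probe sets, 1 was called lower in PN1a (Notch4 93928_f_at), none was called higher and 12 were not called, where a call needs a limma adjusted p under 0.05 and a fold of at least 1.5. Over all 12422 probe sets, 1.62% were called lower and 0.869% higher in PN1a. Every PN1a sample lay below every PN1b sample in 1 member probe set and in 2.38% of all probe sets, and every PN1a sample lay above every PN1b sample in none of the members and in 1.58% of all. Nothing is read from these counts, since the choice of the family used this contrast. The median difference was -0.26 over the members, with 9 negative and 4 positive, and -0.01 over all probe sets, of which 51.4% were negative. Within title ending set 1, 9 of 13 members kept their sign.

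**Figure D4:**
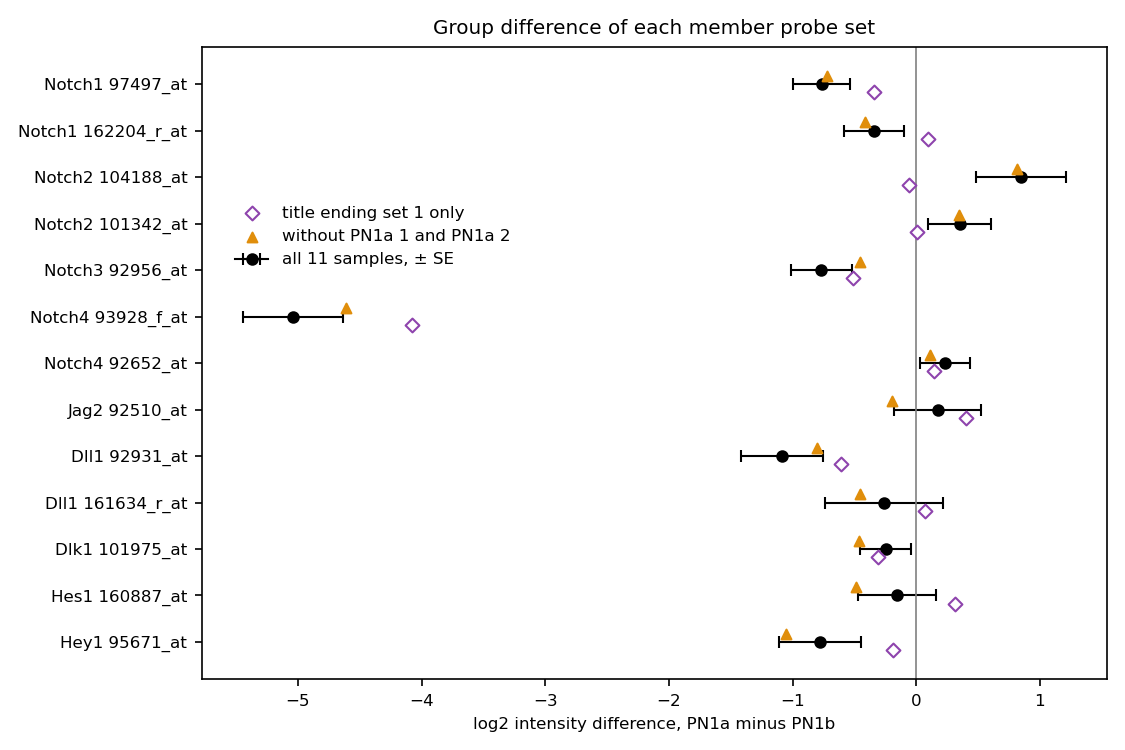
Log2 intensity difference of PN1a minus PN1b for the 13 member probe sets. Black points with bars give all 11 samples with the SE, triangles the value without PN1a 1 and PN1a 2, and diamonds that within title ending set 1. Notch4 93928_f_at lies between -5.04 and -4.08 in the 3 settings, while Notch2 104188_at stands at 0.85 with all samples and at -0.06 within set 1.

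The rest of the pathway was read from a list of 53 other genes, of which 32 were measured by 40 probe sets. Those measured take in the ADAM and gamma-secretase proteases, the Fringe glycosyltransferases that tune ligand choice, Rbpj with its coactivators and corepressors, the endocytic and ubiquitin regulators, and further Hes genes. None of the 40 probe sets was called in either direction by limma, and 4 had an unadjusted p under 0.05, as did 18.9% of all probe sets. The median difference over the 32 genes was -0.04, with 14 positive and 18 negative. The 4 with the smallest unadjusted p were the corepressor deacetylase Hdac2 at -0.50 (SE 0.19, limma adjusted p = 0.162), the Hes family repressor Hes5 at -0.72 in probe set 162069_at (SE 0.31, adjusted p = 0.226), Hdac1, another deacetylase, at 0.66 (SE 0.29, adjusted p = 0.233), and Dtx2, a Deltex ubiquitin ligase, at 0.51 (SE 0.22, adjusted p = 0.234). Hes5 was not uniform, since its other probe set, 161051_at, stood at -0.14. Probe set 162069_at read 1.23 to 5.58 over the 11 samples, near the floor of 1, so no size is read from its difference. Rbpj itself, the DNA-binding partner of all 4 receptors, differed by 0.22 (SE 0.29, adjusted p = 0.738). Without PN1a 1 and PN1a 2, Hdac2 stood at -0.46, Hdac1 at 0.36, Dtx2 at 0.315 and Rbpj at 0.15.

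**Figure D5:**
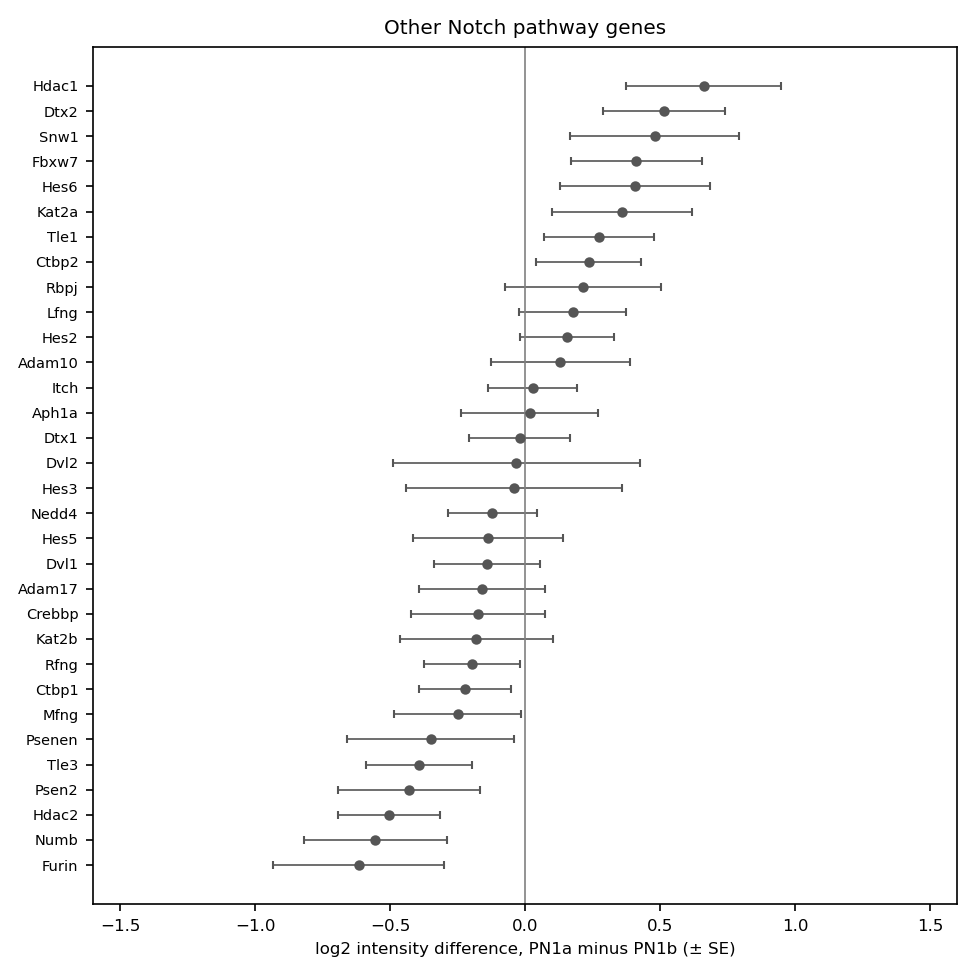
Log2 intensity difference of PN1a minus PN1b, with its SE, for 1 probe set of each of the 32 other Notch pathway genes measured, ordered by the difference. All points lie between -0.62 for Furin and 0.66 for Hdac1, and none was called. Without PN1a 1 and PN1a 2, not drawn here, Furin stood at -0.18 and Hdac1 at 0.36.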

How the data were processed

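Total RNA of mammary glands from PN1a (n = 5) and PN1b (n = 6) lesions was hybridized to 1 Affymetrix MG_U74Av2 array per sample. The deposited table holds intensity on a linear scale for 12488 probe sets, which the authors obtained with dChip (PM-MM model, quantile normalization, version not given in the sources used here). Scanner files were not used, and the table gives no detection calls, so whether a dim probe set was above background is not known. The 3 p53-/- samples of the paper were not analysed here.

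Here log2 of the intensity was taken without a pseudocount, 66 control probe sets were left out, and PN1a was compared with PN1b over 12422 probe sets by limma 3.58.1 under R 4.3.3 (lmFit and eBayes, two-sided, no covariate, Benjamini-Hochberg adjustment). A probe set was called at an adjusted p under 0.05 and a fold of at least 1.5. The limma step was tested on simulated data. Since the labels name no separate mice, p-values cover only the spread from sample to sample, which may be technical. The number of arrays limits the precision.

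Gene symbols came from the annotation of the array, brought up to date through gene identifiers: 10833 tested probe sets had 1 symbol, 396 several and 1193 none. Text names were taken by rule: all probe sets of the members, the 4 other pathway genes with the smallest p beside any that were called, the 5 named probe sets most correlated with each Notch4 probe set, the 3 measured genes on each side of Notch4, and the 2 brightest markers of a cell type list. Promoters and gene order came from RefSeq, GRCm38.p6. The members and lists were chosen with earlier results of these data known. Python 3.11.15 with matplotlib 3.10.9 drew the figures. Alternatives tried were the methods' t-test, the title ending as a block, other scalings, pseudocount, floor and filter, moderated variance with a trend, other fold limits, and each sample left out.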

Additional observations from a re-analysis of the deposited data

Results flagged for a closer look

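Of 26 groups checked, 13 member probe sets in each of PN1a and PN1b, 4 held a sample whose gap to its nearest neighbor took up more of the group's range than Dixon's critical value for its size. Chance marks about 1 in 20 groups. Jag2 92510_at was lowest in PN1a 5, at an intensity of 2.46, with a gap of 0.712 of the PN1a range. Hey1 95671_at was lowest among PN1b samples in PN1b 5, at 12.1, with a gap of 0.675. Dlk1 101975_at was lowest among PN1b samples in PN1b 4, at 8.94, with a gap of 0.667. Dll1 161634_r_at was highest in PN1b 4, at 7.89, with a gap of 0.822, in a probe set that otherwise stood at or near the floor of 1.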

How the results depend on the processing

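Over all probe sets 309 were called, 108 higher and 201 lower in PN1a. The count was 713 with the methods' t-test at its threshold and 145 after Benjamini-Hochberg, 31 with the title ending as a fixed block, 162 as a random block, 18 within title ending set 1, 150 with values below 8 set to 8, and 126 to 559 when each sample was left out. It was 126 without PN1b 3, 131 without PN1b 4, 132 without PN1b 1, 167 without PN1a 3, 186 without PN1a 1, 194 without PN1b 2 and 559 without PN1b 5. Without PN1a 1 and PN1a 2, an alternative chosen after seeing the data, it was 167. Centred on each array's median, calls split into 155 higher and 186 lower. After quantile normalization was repeated they split into 137 higher and 185 lower, and without PN1a 1 and PN1a 2 into 85 and 82. The members' calls numbered 1 to 2 when each sample was left out: Notch1 97497_at joined at -0.90 without PN1b 5 and at -0.77 with the t-test, which made 2. Nothing is read from these calls. With the fixed block and within set 1, Notch2 104188_at turned to -0.055, Hes1 to 0.31, Notch1 162204_r_at to 0.10 and Dll1 161634_r_at to 0.067. Dll1 161634_r_at ranged over -0.39 to 0.22 when each sample was left out, with 0.22 without PN1b 4, and had no value with the floor of 8. In the same way Jag2 ranged over 0.03 to 0.525, Hes1 over -0.416 to -0.0133, Dlk1 over -0.393 to -0.151, Notch1 162204_r_at over -0.474 to -0.22 and Notch4 92652_at over 0.113 to 0.321. Jag2 turned to -0.20 without PN1a 1 and PN1a 2. The cause of these changes was not tested. No other member changed direction, and no other Notch pathway gene was called, in any setting run. No paired analysis was possible because the titles give the groups no shared replicate numbers.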
